A study of Mus musculus with 36 samples.

Results

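Lgr5 GL cells were compared between 8 weeks (8w pw1) and 4 weeks (4w pw1) after a first full-thickness wound in mouse tail skin, across all genes of the Lgr5 GL count table. The comparison rested on 6 of the 36 libraries of the series, 3 at 4w pw1 and 3 at 8w pw1, and was read over the 18025 genes that had enough counts among the 22587 in the table. The mice of both groups, like every Lgr5 GL mouse of the series, carried Lgr5-EGFP-ires-CreERT2 and Rosa26-fl/STOP/fl-tdTomato, and had been given hydroxytamoxifen once on the tail skin ahead of the injury, as adults. The paper states both sexes for its experiments unless indicated otherwise, and the sex of these mice is not given. The Y-linked genes Ddx3y and Eif2s3y are not in the count table, while Kdm5d and Uty are, with too few counts to be tested. The sex of the mice was not read from these genes. The Lgr5 locus drove the recombinase, so that tdTomato marked cells that had used it at the time of labelling and all their descendants, whatever these had become. Each library was made from 150 sorted tdTomato+ cells taken from the wound bed together with the hair follicles (HFs) distal to it, with a full-length Smart-seq2 protocol scaled up to small pools of cells. The 8w pw1 libraries came before any second injury, at the time the study treats as a new homeostasis. By the schedule in the paper, mice at 8w pw1 were also older than mice at 4w pw1, and mice sampled before injury were younger than both. The series holds no unwounded mice of matching age at either time. Age and stage of the hair cycle therefore cannot be told apart from time since wounding, and their part was not tested. The 4w pw1 and 8w pw1 libraries are called a, b and c below in the order of the table, since their numbers in the table are not those of the labels.

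Lgr5+ stem cells sit in the lower part of the resting HF, in the bulge and the hair germ beneath it. Bulge cells are kept quiescent by bone morphogenetic protein (BMP) signals and by FGF18, and they carry Krt15, Cd34, Sox9 and Nfatc1. When a follicle enters growth (anagen), Wnt and Shh signals drive the germ and later the bulge to divide, and the matrix that they form differentiates into the hair shaft, with its hard keratins, and into the inner root sheath that moulds it, with the type I keratins Krt25, Krt27 and Krt28 and the type II keratins Krt71 and Krt73. The design of the series asks, with these time points, how the progeny of the HF stem cells change while the skin returns to homeostasis after wounding.

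The 4w pw1 libraries held 1359006, 2116933 and 1297798 counts and the 8w pw1 libraries 2250348, 3736410 and 5795482, so the depths of the groups did not overlap. A gene at the floor of 3 counts lay between 0.453 and 2.92 CPM (counts scaled to a common TMM-adjusted total, not divided by gene length). With all 18 Lgr5 GL libraries thinned to 1297798 counts, 13509 genes were tested and 82 were called. Of the 59 called below, 48 were among them. Gm12415, a long intergenic RNA on chromosome 4 (84741475 to 84742291), took 52.1, 28.5 and 30.6% of the counts at 4w pw1 and 30.1, 21.8 and 15.2% at 8w pw1, and 58 genes were called without it. Across genes, Pearson's r between libraries (log2 CPM) was 0.727 to 0.854 within 4w pw1, 0.835 to 0.904 within 8w pw1 and 0.745 to 0.845 between them, with 4w pw1 library a the farthest from its group. The sorted cells held keratinocyte genes at high level, with a sum over 6 markers of 8306 to 11082 CPM at 4w pw1 and 13423 to 16643 CPM at 8w pw1. These markers include Perp, the only one of them called below, where it rose. Of 8 fibroblast markers none was at 0 and their sum went from 161 to 180 CPM at 4w pw1 and from 258 to 355 CPM at 8w pw1, and its part in the results was not tested. Merkel cell markers went the other way, from a sum of 39.0 to 52.5 CPM at 4w pw1 to 12.8 to 32.9 CPM at 8w pw1, with Atoh1 not listed, and their part was not tested either. The count table lists no gene without counts, and 6 of 8 T cell markers are not in it, nor are Cd207, H2-Aa and Lyz2 of Langerhans cells and macrophages or Tyrp1, Tyr and Mlana of melanocytes. The markers that are listed summed to 18.4 to 66.1 CPM at 4w pw1 and 14.2 to 34.0 CPM at 8w pw1 for T cells, to 0 to 8.38 and 5.36 to 15.9 CPM for Langerhans cells and macrophages, and to 34.8 to 53.1 and 28.3 to 67.0 CPM for melanocytes, which overlapped between the groups.

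Krt15 and Fgf18 of the quiescent bulge rose from 4w pw1 to 8w pw1, and 4 keratins of the inner root sheath and hair shaft fell. In edgeR's quasi-likelihood test over all 6 time points of the Lgr5 GL cells, 59 of 18025 genes (0.327%) passed between these times, which took a p below 0.05 after Benjamini-Hochberg adjustment and a log2 fold change of more than 1 in either direction. Of these, 41 (0.227% of the genes tested) rose and 18 (0.0999%) fell from 4w pw1 to 8w pw1. At an unadjusted p under 0.05 there were 1603 genes (8.89%), 909 of them higher (5.04%) and 694 lower (3.85%). For all 59 called genes the 3 libraries of one time point lay above the 3 of the other, which was so for 1881 genes in the higher direction (10.4%) and for 1196 in the lower one (6.64%) over all genes. The count of 59 fell when any library was left out, to 21, 43 and 8 without 4w pw1 library a, b and c and to 28, 19 and 21 without 8w pw1 library a, b and c. The count was 309 with DESeq2, 267 with the likelihood ratio test and 4 when the 4 estimated surrogate variables entered the fit. Of these 4 genes, 3 were among the 59. With 2 surrogate variables the count was 127, with 55 of the 59 among them. The paper's methods also applied surrogate variable analysis to the normalized counts and do not give the number of variables. With 3 libraries per group, an exact permutation test of a single gene cannot give a two-sided p below 0.1, so each call leans on the spread shared by all genes of the fit.

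**Figure D1:**
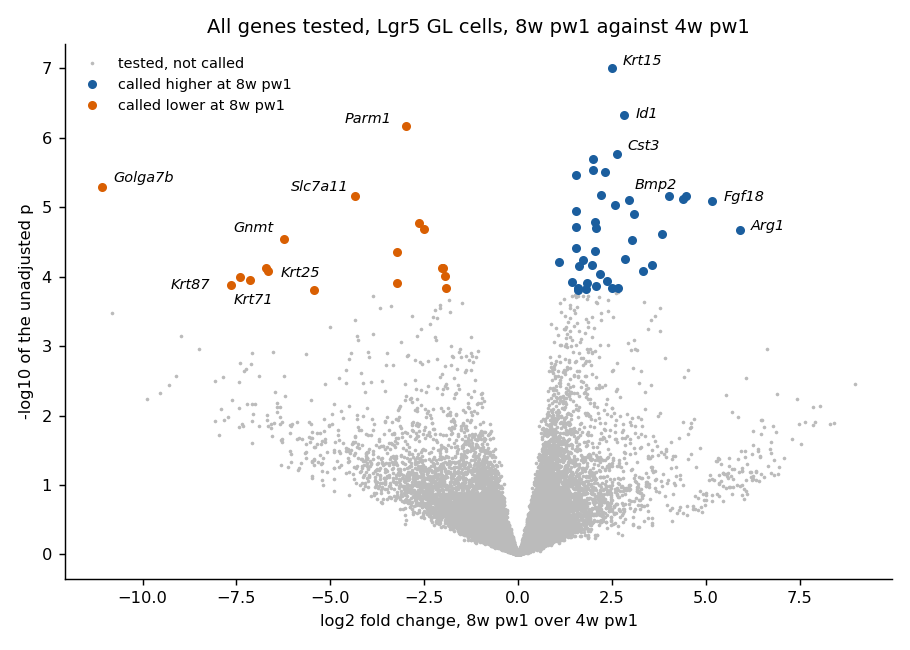
Each point is 1 of the 18025 genes tested in Lgr5 GL cells. The horizontal axis is the log2 fold change of 8w pw1 over 4w pw1 and the vertical axis is −log10 of the unadjusted p of edgeR's quasi-likelihood test. Grey points did not pass the test. The 41 blue points rose and the 18 orange points fell, and Krt15 has the smallest p of all.

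Krt15 (chromosome 11, 100131758 to 100135928, minus strand), the type I keratin that marks bulge stem cells, had the smallest p of all genes. Its level was 2685, 4505 and 2913 CPM in the 4w pw1 libraries and 20135, 17598 and 19854 CPM in the 8w pw1 libraries. No 4w pw1 library came near an 8w pw1 library. The log2 fold change was 2.51 (SE 0.29, adjusted p = 0.0018), or 5.70-fold. Krt15 was the only gene called in all 24 fits run, with an adjusted p of at most 0.0304. Before injury it stood at 16189 ± 2474 CPM (SD, n = 3), and at 1w pw1, 2w pw1 and 1w pw2 its means were 7243, 6112 and 11855 CPM.

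Fgf18 (chromosome 11, 33117430 to 33147400), the growth factor that bulge cells make and that holds the HF in its resting phase, had 0, 7.1 and 3.4 CPM at 4w pw1. At 8w pw1 it had 126, 155 and 152 CPM. The groups were far apart, with a log2 fold change of 5.18 (SE 0.84, adjusted p = 0.0091). Of 18 bulge identity genes, all tested, Krt15 and Fgf18 rose, 0 fell and 16 did not pass. Their median log2 fold change was 0.96, beside 0.0068 over all genes tested, and 15 of the 18 were above 0. At an unadjusted p under 0.05 there were 7 higher and 0 lower. The median kept its sign in each of the 9 settings tried, from 0.75 to 1.27. The members named next were chosen after their values were seen. Nfatc1, a factor that keeps bulge cells quiescent, had 81.7, 198 and 199 CPM at 4w pw1 and 401, 607 and 591 CPM at 8w pw1 (log2 fold change 1.74, SE 0.48, adjusted p = 0.15). Bmp6, a BMP that bulge cells make, had 6.8, 5.0 and 4.7 CPM and then 42.8, 65.6 and 70.9 CPM (log2 fold change 3.45, SE 0.83, adjusted p = 0.084). Neither passed the test, although for both genes every 8w pw1 library was above every 4w pw1 library. Sox9, by level among the leading members of the list, gave 812, 1255 and 1067 CPM and then 1481, 2135 and 1771 CPM (log2 fold change 0.78, SE 0.30, adjusted p = 0.42). Lgr5 itself overlapped between the groups, at 197, 307 and 289 CPM at 4w pw1 and 129, 396 and 178 CPM at 8w pw1 (log2 fold change -0.17, SE 0.51, adjusted p = 0.96). Nfib, a factor that bulge cells share, was the only member of the list with all 8w pw1 libraries below, at 835, 641 and 824 CPM and then 389, 621 and 573 CPM (log2 fold change -0.54, SE 0.28, adjusted p = 0.61). In bulk libraries, fewer cells of a type and less RNA of that type per cell cannot be told apart.

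**Figure D2:**
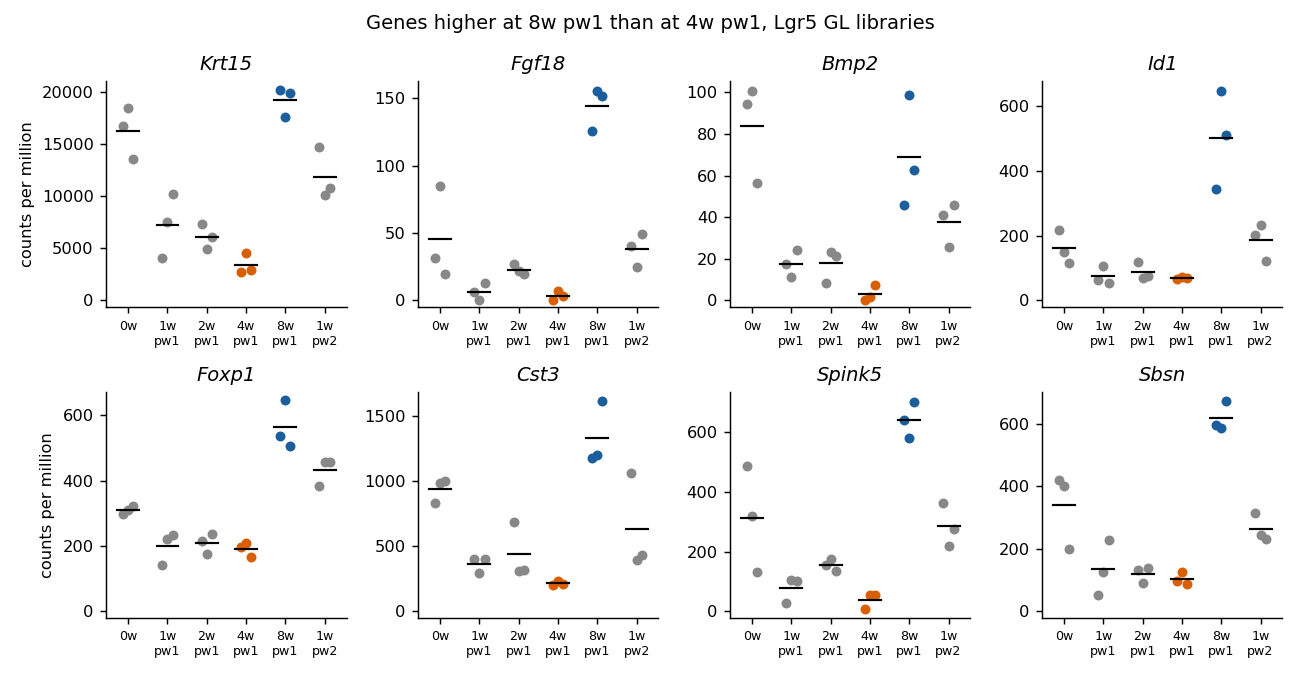
Expression in CPM of 8 genes called higher at 8w pw1, in the 18 Lgr5 GL libraries by time point (3 libraries each). Points are libraries, orange for 4w pw1 and blue for 8w pw1, and the bar is the mean of the time point. For Krt15 the 4w pw1 libraries reach 4505 CPM and the 8w pw1 libraries start at 17598 CPM.

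Id1 and Bmp2 rose among the genes of the TGF-β and BMP pathway. Id1 (chromosome 2, 152736251 to 152737410), an inhibitor of helix-loop-helix factors and a direct target of BMP-activated SMADs, had 66.1, 73.3 and 70.6 CPM at 4w pw1 and 342, 647 and 511 CPM at 8w pw1. The 4w pw1 libraries were close to each other and all 8w pw1 libraries were above them. The log2 fold change was 2.84 (SE 0.37, adjusted p = 0.0041), and the call held without any 1 of the 6 libraries. Id1 was called in 23 of the 24 fits run. Bmp2 (chromosome 2, 133552159 to 133562885), a BMP ligand, had 0, 1.7 and 7.4 CPM and then 45.9, 98.7 and 62.6 CPM, with a log2 fold change of 4.47 (SE 0.71, adjusted p = 0.0091). Of the 30 genes of the list, all tested, 2 rose, 0 fell and 28 did not pass. Their median log2 fold change was -0.07, near that of all genes, and its sign turned in 3 of the 6 fits that left out a library. Id2, a family member of Id1 and one of the leading members by level, stopped short of the threshold, at 54.5, 90.1 and 104 CPM and then 201, 543 and 375 CPM (log2 fold change 2.16, SE 0.46, adjusted p = 0.051). Id3, chosen after its values were seen, had 25.3, 164 and 96.2 CPM at 4w pw1 and 226, 377 and 440 CPM at 8w pw1 (log2 fold change 1.85, SE 0.48, adjusted p = 0.13). Id4, Bmpr1a and Bmpr2 were also named after their values were seen. Id4 had a log2 fold change of 0.11 (SE 0.49, adjusted p = 0.97). The BMP receptors Bmpr1a and Bmpr2 had log2 fold changes of 0.01 (SE 0.40) and 0.30 (SE 0.32). Tgfbi, an extracellular protein induced by TGF-β, had 150, 215 and 141 CPM and then 299, 430 and 500 CPM (log2 fold change 1.28, SE 0.30, adjusted p = 0.084).

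Other regulators rose too. Genes outside the 15 with the smallest p in this direction are named here and in the next paragraphs after their values were seen. Foxp1 (chromosome 6, 98925338 to 99522721), a forkhead factor known to hold bulge stem cells in rest, had 197, 210 and 167 CPM at 4w pw1 and 537, 647 and 505 CPM at 8w pw1 (log2 fold change 1.56, SE 0.24, adjusted p = 0.0077). Nr3c1, the glucocorticoid receptor, went from 31.1, 79.2 and 94.1 CPM to 240, 264 and 308 CPM (log2 fold change 1.98, SE 0.38, adjusted p = 0.0338). Tshz3, a zinc finger factor, had a log2 fold change of 2.38 (SE 0.48, adjusted p = 0.0442) and Zfp652, another, of 3.03 (SE 0.54, adjusted p = 0.0189). Txnip, an inhibitor of thioredoxin and of glucose uptake, had a log2 fold change of 2.19 (SE 0.44, adjusted p = 0.0386). Exons of Foxp1, Zfp652 and Txnip overlap those of other genes, and it is not stated whether the counting used strand.

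Protease inhibitors and secreted proteins made up a further share of the genes that rose, a grouping made after the values were seen. Cst3, which encodes cystatin C, had 204, 235 and 207 CPM at 4w pw1 and 1178, 1198 and 1613 CPM at 8w pw1 (log2 fold change 2.63, SE 0.38, adjusted p = 0.0073). Spink5, which encodes an inhibitor of the kallikreins that shed corneocytes, had 5.8, 54.9 and 54.5 CPM and then 641, 583 and 702 CPM (log2 fold change 4.03, SE 0.64, adjusted p = 0.0091). The groups lay well apart for both genes. Wfdc3, a whey acidic protein domain gene, gave a log2 fold change of 4.40 (SE 0.71, adjusted p = 0.0091), and Serpinb2, a serpin that inhibits urokinase and that shares exon sequence with Serpinb10, gave 2.85 (SE 0.54, adjusted p = 0.0308). Chit1, a chitinase, rose by 2.96 on the log2 scale (SE 0.48), F3, which encodes tissue factor, by 3.56 (SE 0.69), Ecm1, an extracellular matrix protein, by 2.09 (SE 0.43) and Vwa1, a matrix protein of basement membranes, by 1.61 (SE 0.34). Arg1, which splits arginine into ornithine and urea, had the widest difference among the genes that rose, from 0, 7.5 and 2.0 CPM to 164, 287 and 239 CPM (log2 fold change 5.92, SE 1.03, adjusted p = 0.0151).

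Among junction and envelope genes, Perp, Sbsn and Gjb5 rose and Gja1 fell. Perp, a component of desmosomes, had 1993, 2406 and 1760 CPM at 4w pw1 and 4934, 6061 and 7117 CPM at 8w pw1 (log2 fold change 1.56, SE 0.27, adjusted p = 0.0151). Gja1 (chromosome 10, 56377330 to 56402513), which encodes the gap junction protein connexin 43, had 2855, 999 and 1867 CPM and then 472, 413 and 629 CPM (log2 fold change -1.92, SE 0.40, adjusted p = 0.0472). Gjb5, which encodes connexin 31.1 of the suprabasal epidermis, had a log2 fold change of 2.51 (SE 0.52, adjusted p = 0.0472). Of 22 cadherin, desmosome and tight junction genes tested, 1 rose, 1 fell and 20 did not pass, with a median of 0.37 (0.13 without 8w pw1 library c and 0.59 without 8w pw1 library a). Sbsn, suprabasin of the upper epidermal layers, had 96.3, 125 and 86.7 CPM and then 598, 588 and 672 CPM (log2 fold change 2.59, SE 0.42, adjusted p = 0.0099). It was the only one of 21 interfollicular differentiation genes tested that passed, and the median of that list was -0.87. This median turned to 0.78 without 4w pw1 library b. That library held 1256 CPM of Krt1 and 1418 CPM of Krt10, the keratins of the suprabasal layers, with 6.8 and 252 CPM of Krt1 and 25.3 and 362 CPM of Krt10 in the other 4w pw1 libraries. Dmkn and Calml3, expressed in differentiating keratinocytes and leading members by level, had log2 fold changes of 1.49 (SE 0.33, adjusted p = 0.062) and 1.64 (SE 0.41, adjusted p = 0.11).

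The remaining genes that rose carry diverse functions. Anxa8, an annexin, had 549, 619 and 486 CPM at 4w pw1 and 1655, 2518 and 2456 CPM at 8w pw1 (log2 fold change 2.00, SE 0.29, adjusted p = 0.0073). Gsn, the actin-severing protein gelsolin, went from 808, 803 and 557 CPM to 2768, 2778 and 3458 CPM (log2 fold change 2.05, SE 0.35, adjusted p = 0.0143). Dapl1, a gene of early epithelial differentiation, went from 116, 138 and 78.0 CPM to 541, 493 and 507 CPM (log2 fold change 2.22, SE 0.35, adjusted p = 0.0091). In each of these genes the 8w pw1 libraries were clear of the 4w pw1 libraries. Rabac1, which acts on Rab proteins, Tmem45a, a membrane protein of the epidermis, Tuba4a, a tubulin whose exons overlap Stk16 on the other strand, and Pdzk1ip1 had log2 fold changes of 2.00 (SE 0.30), 2.33 (SE 0.35), 1.55 (SE 0.26) and 3.10 (SE 0.52). Ier3, an immediate early gene, was the only one of 21 such genes to pass, with a log2 fold change of 2.08 (SE 0.36, adjusted p = 0.0151). Cd9, a tetraspanin of the cell surface, rose by 1.10 on the log2 scale (SE 0.21). Dlgap4, Parp10, Plp2, Adcy1, Ptms, Tmem184a, Endod1 and Sbds had log2 fold changes between 1.43 and 3.84, and Txn-ps1, a pseudogene copy of thioredoxin whose reads cannot be told from those of its parent with certainty, had 1.83 (SE 0.37). One more gene that rose carries a clone name.

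Of the keratins of the inner root sheath and hair shaft, Krt25, Krt28, Krt71 and Krt87 fell. Krt25 (chromosome 11, 99315516 to 99322951, minus strand) had 121, 665 and 146 CPM at 4w pw1 and 4.4, 3.4 and 1.8 CPM at 8w pw1 (log2 fold change -6.66, SE 1.31, adjusted p = 0.0357). Krt71 (chromosome 15, 101733949 to 101743109, minus strand), its type II partner in the sheath, had 242, 2600 and 256 CPM and then 10.2, 6.6 and 5.7 CPM (log2 fold change -7.14, SE 1.45, adjusted p = 0.044). Krt28 (chromosome 11, 99364872 to 99374903, minus strand) had 42.8, 63.7 and 84.0 CPM and then 4.4, 11 and 4.8 CPM (log2 fold change -3.23, SE 0.66, adjusted p = 0.045). For these sheath keratins every 4w pw1 library was above every 8w pw1 library, and 4w pw1 library b was the highest for Krt25 and Krt71 but not for Krt28. Krt87, a hard keratin of the hair shaft, had 1.9, 129 and 85.4 CPM and then 0, 0 and 0.75 CPM (log2 fold change -7.66, SE 1.53, adjusted p = 0.0468). Its level in 4w pw1 library a was below the floor of 2.92 CPM of that library. The hard keratins are a family of close copies, so reads may be split between them. None of Krt25, Krt28 and Krt71 passed when any 1 of the 6 libraries was left out, and over all fits run their adjusted p reached at most 0.363 for Krt25.

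The bases before the start sites of the 3 sheath keratins that fell together, and of Fgf18, which rose, are shown because the results turn on these genes. The choice was also limited by the promoter sequences at hand, which held none for Krt15, Id1, Bmp2 and Krt87. Those shown are the 250 bases upstream in RefSeq on GRCm38.p6, all on the minus strand and written 5′ to 3′. Capitals mark matches to TATAAA, the core of a TATA box, and to CTTTGA, a form of the site that LEF and TCF factors bind, each searched on either strand.
Krt25, chr11:99322952-99323201: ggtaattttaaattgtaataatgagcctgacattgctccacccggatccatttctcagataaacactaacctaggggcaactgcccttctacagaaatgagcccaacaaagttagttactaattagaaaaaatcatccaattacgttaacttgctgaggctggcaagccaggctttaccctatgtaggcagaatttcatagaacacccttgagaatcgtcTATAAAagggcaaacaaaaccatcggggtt
Krt28, chr11:99374904-99375153: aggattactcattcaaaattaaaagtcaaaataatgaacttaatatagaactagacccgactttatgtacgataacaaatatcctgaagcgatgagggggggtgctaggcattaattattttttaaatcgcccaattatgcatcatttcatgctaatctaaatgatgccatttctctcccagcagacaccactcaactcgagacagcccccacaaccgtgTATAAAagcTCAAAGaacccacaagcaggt
Krt71, chr15:101743098-101743347: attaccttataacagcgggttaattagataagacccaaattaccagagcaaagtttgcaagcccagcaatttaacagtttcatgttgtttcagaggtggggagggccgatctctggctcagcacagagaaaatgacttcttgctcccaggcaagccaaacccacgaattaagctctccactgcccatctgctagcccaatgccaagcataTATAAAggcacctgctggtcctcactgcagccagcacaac
Fgf18, chr11:33147401-33147650: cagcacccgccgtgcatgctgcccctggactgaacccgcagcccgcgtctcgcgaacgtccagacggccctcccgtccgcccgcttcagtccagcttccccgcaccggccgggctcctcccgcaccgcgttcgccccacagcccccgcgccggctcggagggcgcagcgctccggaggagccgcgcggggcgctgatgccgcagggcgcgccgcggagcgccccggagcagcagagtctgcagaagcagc

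TATAAA stood at position -30 from the start site in Krt25 and Krt28 and at -40 in Krt71, and was not in the window of Fgf18. Positions count from the RefSeq start, which for Krt71 lies inside the GENCODE gene span given above, so its position depends on the annotation. Of all 32851 RefSeq promoter windows of this length, 12.4% held TATAAA on either strand, as did 5 of 26 windows of genes that rose (19.2%) and 4 of 14 of genes that fell (28.6%). No window was found for the rest of the 41 genes that rose and of the 18 that fell. CTTTGA was found in Krt28 alone of these 4, on the opposite strand at -21, and in 13.8% of all windows, 4 of the 26 and 1 of the 14. Other forms of the LEF and TCF site, such as AACAAAG in the Krt25 window, were not searched. The motifs do not overlap each other in these windows, and a match describes the letters and not a bound site.

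Of 21 hair shaft and inner root sheath genes tested, of 26 in the table, 0 rose, 4 fell and 17 did not pass. The median log2 fold change was -3.23, 20 of the 21 were below 0 and 14 had an unadjusted p under 0.05, all of them lower. Over the 9 settings tried the median stayed between -3.69 and -2.77. The summed level of the list was 638, 2179 and 5385 CPM in the 4w pw1 libraries, ordered by size, and 290 to 369 CPM in the 8w pw1 libraries. Genes chosen after their values were seen were Krt73, the sheath partner of Krt25, at 36, 50.7 and 135 CPM and then 1.8, 2.7 and 2.3 CPM (log2 fold change -5.01, SE 1.19, adjusted p = 0.084), and Tchh, trichohyalin of the sheath and medulla, at 53.5, 645 and 121 CPM and then 5.7, 6.3 and 21.4 CPM (log2 fold change -4.57, SE 1.28, adjusted p = 0.17). Krt35, a hard keratin of the matrix and cortex, had 18.5, 320 and 303 CPM and then 9.7, 16.6 and 6.8 CPM (log2 fold change -4.28, SE 1.05, adjusted p = 0.098). The groups did not overlap for any of these. Krt75, the keratin of the companion layer between the outer and inner sheath and one of the leading members by level, did overlap, at 53.5, 88.0 and 644 CPM and then 148, 176 and 109 CPM (log2 fold change -0.86, SE 0.81, adjusted p = 0.82).

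**Figure D3:**
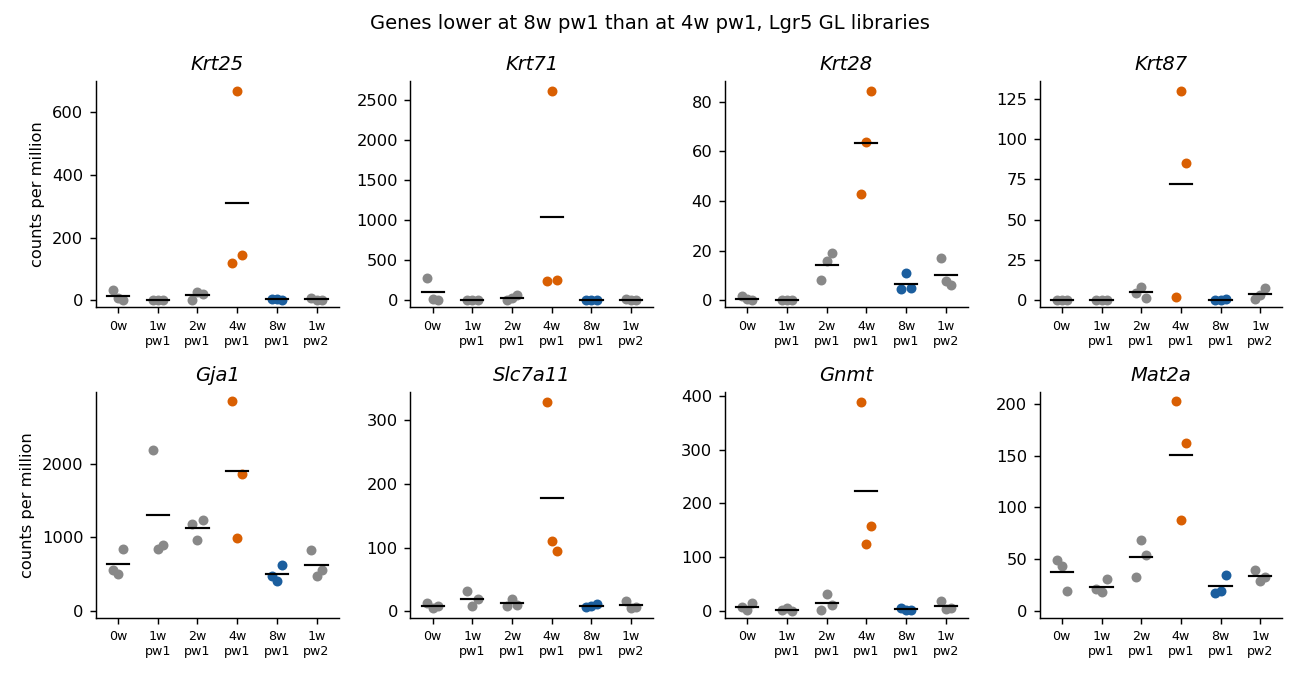
Expression in CPM of 8 genes called lower at 8w pw1, in the 18 Lgr5 GL libraries by time point (3 libraries each). Points are libraries, orange for 4w pw1 and blue for 8w pw1, and the bar is the mean of the time point. Krt71 reaches 2600 CPM in 1 library of 4w pw1 and at most 10.2 CPM at 8w pw1, and Krt87 was listed at 0 in all 0w libraries.

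Regulators of hair growth gave 0 calls among 21 tested, with a median log2 fold change of -0.47 that came to 0.00 without 4w pw1 library b. The values that follow were chosen after they were seen. Lef1, the Wnt effector of the matrix and precortex, had 6.8, 45.3 and 69.9 CPM at 4w pw1 and 2.6, 6.6 and 1.5 CPM at 8w pw1 (log2 fold change -3.51, SE 0.96, adjusted p = 0.15). Dlx3, a homeobox factor of the matrix, had 22.4, 49.0 and 65.9 CPM and then 8.0, 10.7 and 3.9 CPM (log2 fold change -2.61, SE 0.71, adjusted p = 0.15). Neither passed, although the groups did not overlap. Hoxc13 and Gata3, matrix factors that lead the list by level, had log2 fold changes of 0.12 (SE 0.57) and 0.53 (SE 0.27).

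Mitotic genes lay lower at 8w pw1, without a single call. Of 21 genes of G2 and M phase, all tested, 0 passed, 21 had a log2 fold change below 0 and 13 had an unadjusted p under 0.05. The median was -2.08 and stayed between -2.46 and -1.53 over the 9 settings. Top2a, the topoisomerase that untangles chromosomes, had 51.5, 65.8 and 109 CPM at 4w pw1 and 11.9, 19.5 and 11.5 CPM at 8w pw1 (log2 fold change -2.40, SE 0.65, adjusted p = 0.15). Cenpf, a kinetochore protein, had 49.6, 48.2 and 72.6 CPM and then 6.6, 18 and 13 CPM (log2 fold change -2.16, SE 0.50, adjusted p = 0.070). Mki67, the proliferation marker, overlapped between the groups through 4w pw1 library a, at 10.7, 47.8 and 102 CPM and then 11.9, 5.6 and 13 CPM (log2 fold change -2.40, SE 0.81, adjusted p = 0.33). Before injury Mki67 stood at 27.3 CPM on average and Top2a at 34.1 CPM. Genes of S phase showed less, with 0 of 20 called, 3 lower at an unadjusted p under 0.05 and a median of -0.39 (-0.19 without 8w pw1 library b and -0.66 without 4w pw1 library a). Single genes of replication and mitosis outside these lists did fall. Dtl, which loads the ligase that destroys Cdt1 in S phase, had 29.2, 81.3 and 67.9 CPM and then 1.8, 7.6 and 9.1 CPM (log2 fold change -3.23, SE 0.60, adjusted p = 0.0257). Haspin, the kinase that marks histone H3 at centromeres, with a mean under 10 counts, had 37 counts in all at 4w pw1 and 2 at 8w pw1, a ratio of 49.0 (95% counting interval 12.7 to 420).

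Cell cycle inhibitors and D cyclins gave 0 calls among 14. Cdkn1b, the quiescence inhibitor p27, had 73.9, 136 and 110 CPM at 4w pw1 and 417, 225 and 276 CPM at 8w pw1 (log2 fold change 1.52, SE 0.34, adjusted p = 0.064). Cdkn1a, which encodes p21, had 125, 148 and 104 CPM and then 273, 244 and 280 CPM (log2 fold change 1.08, SE 0.29, adjusted p = 0.14). Ccnd2, a cyclin of G1, had 315, 312 and 201 CPM and then 79.5, 59.5 and 150 CPM (log2 fold change -1.52, SE 0.40, adjusted p = 0.14). For these 3, the leading members of the list by level, the libraries of the time points were apart although the adjusted p was above 0.05.

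**Figure D4:**
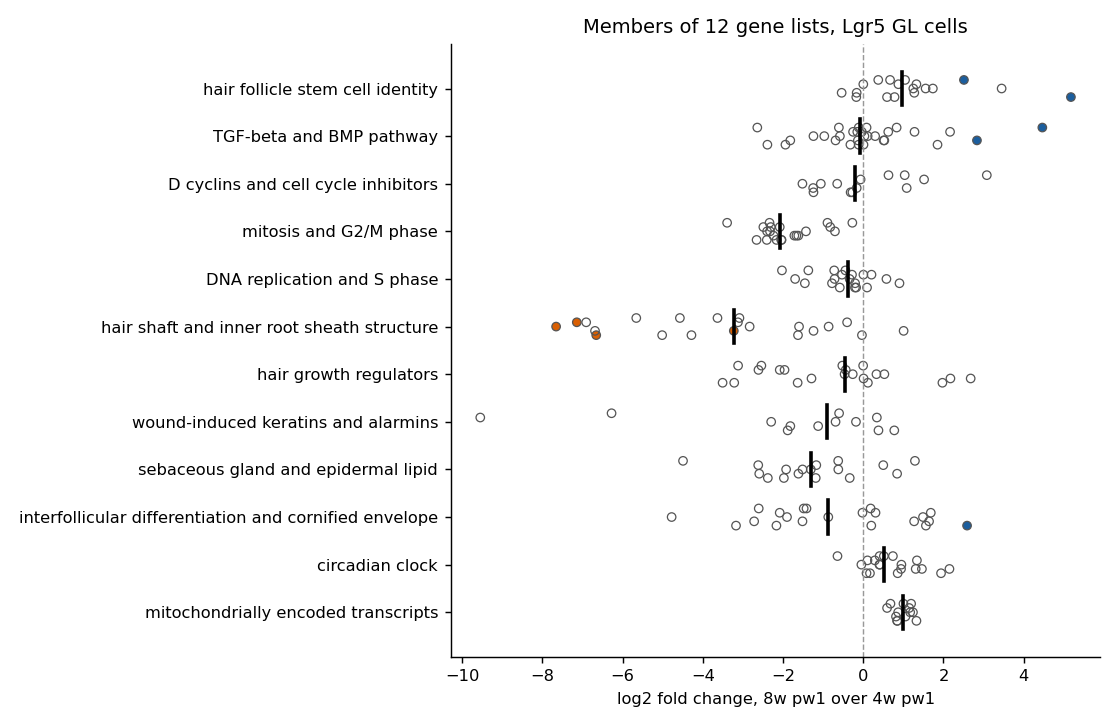
Log2 fold change of 8w pw1 over 4w pw1 for each tested member of 12 of the 34 gene lists. Each circle is a gene, filled blue where it rose and orange where it fell in the test over all genes, and open where it did not pass. The black bar is the median of the list, at -3.23 for the hair shaft and inner root sheath and at 0.96 for the bulge.

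Of the genes that fell, several handle sulfur amino acids and methyl groups, a grouping made after the values were seen. Slc7a11 (chromosome 3, 49892526 to 50443614), the transporter that brings in cystine for glutathione, had 329, 110 and 94.1 CPM at 4w pw1 and 5.7, 8.5 and 11.6 CPM at 8w pw1 (log2 fold change -4.33, SE 0.69, adjusted p = 0.0091). Gnmt (chromosome 17, 46725664 to 46729168), which consumes S-adenosylmethionine to methylate glycine, had 388, 125 and 157 CPM and then 5.7, 1.5 and 2.3 CPM (log2 fold change -6.23, SE 1.12, adjusted p = 0.0189). Mat2a, which makes S-adenosylmethionine, had 202, 87.6 and 162 CPM and then 17.2, 19.5 and 35.3 CPM (log2 fold change -2.63, SE 0.45, adjusted p = 0.0143). Its exons overlap those of Particl on the other strand. All 4w pw1 libraries were above all 8w pw1 libraries for these genes, and 4w pw1 library a was the highest for each. Ucp2, a carrier of the inner mitochondrial membrane, had 753, 256 and 307 CPM and then 68.0, 113 and 146 CPM (log2 fold change -2.0, SE 0.39, adjusted p = 0.0338). Slc7a11 was the only one of 19 NRF2 target and metallothionein genes called.

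Parm1 (chromosome 5, 91517615 to 91626894), a mucin-like membrane protein, had 204, 82.1 and 161 CPM at 4w pw1 and 10.2, 17.1 and 28.1 CPM at 8w pw1 (log2 fold change -2.99, SE 0.40, adjusted p = 0.0041). Parm1, Id1 and Krt15 were the only genes called in each of the 6 fits that left out a library. Golga7b, an accessory protein of palmitoyltransferases, had 19.4, 73.8 and 105 CPM and no counts at 8w pw1. Against a floor of 3 counts over the 8w pw1 group it was at least 311-fold lower there (adjusted p = 0.0091). Nrep, a regulator of TGF-β signalling in wounded tissue, had 265, 202 and 253 CPM and then 30.0, 50.2 and 46.3 CPM (log2 fold change -2.50, SE 0.44, adjusted p = 0.0151). The collagens Col4a2, of basement membranes, and Col16a1 fell by 2.02 (SE 0.39) and 1.95 (SE 0.39) on the log2 scale, in libraries whose summed fibroblast markers were higher at 8w pw1. The other genes that fell carry clone names.

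Of the 34 gene lists, 7 had a called member and 27 had none. All 13 mitochondrially encoded mRNAs had a log2 fold change above 0, with a median of 1.00 (0.73 to 1.47 over the settings) and 7 at an unadjusted p under 0.05. They took 1.19, 2.15 and 1.24% of the counts at 4w pw1 and 3.29, 3.24 and 2.62% at 8w pw1, which did not overlap, and without these genes 62 genes were called. Of 19 circadian clock genes 17 were above 0 with a median of 0.51, 5 of them higher at an unadjusted p under 0.05, and the median was 1.03 without 4w pw1 library b. Nr1d1, a repressor of the clock and one of the leading members by level, had 11.7, 82.1 and 27.6 CPM and then 109, 260 and 184 CPM (log2 fold change 2.15, SE 0.64, adjusted p = 0.22). Its log2 fold change was the highest of the clock list. The hour of sampling was not in the sources used here. Cytoplasmic ribosomal proteins (77 genes, median 0.27), nuclear-encoded oxidative phosphorylation genes (61 genes, 0.21) and cholesterol synthesis genes (20 genes, 0.58) each had most members slightly above 0. With a library left out these medians ranged from 0.07 (4w pw1 library c) to 0.69 (4w pw1 library a), from 0.05 (8w pw1 library a) to 0.46 (4w pw1 library a) and from 0.33 (8w pw1 library b) to 0.74 (4w pw1 library b). Sebaceous and epidermal lipid genes had a median of -1.31 over 17 tested, with 1 higher and 4 lower at an unadjusted p under 0.05. Fabp5, a fatty acid binding protein, led that list by level at 319, 264 and 206 CPM and then 64.0, 51.4 and 92.1 CPM (log2 fold change -1.92, SE 0.75, adjusted p = 0.43).

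Wound-induced keratins and alarmins had 0 of 12 called and a median of -0.91, which went from -0.20 without 4w pw1 library b to -2.13 without 8w pw1 library c. Krt17, a keratin of the outer root sheath and of activated keratinocytes, had 6387, 3767 and 4245 CPM at 4w pw1 and 920, 1299 and 1864 CPM at 8w pw1, apart but just outside the threshold (log2 fold change -1.82, SE 0.41, adjusted p = 0.064). Krt6a, whose reads may be shared with its close copy Krt6b, and Krt16 overlapped between the groups, with log2 fold changes of 0.38 (SE 0.40) and -0.60 (SE 1.00). Basal layer, hemidesmosome and laminin-332 genes had 0 of 14 called and a median of 0.27. Of these Krt5 had 3128, 2230 and 1951 CPM and then 3438, 5207 and 4488 CPM (log2 fold change 0.85, SE 0.22, adjusted p = 0.14), and its partner Krt14 had a log2 fold change of -0.27 (SE 0.28). Junctional zone and infundibulum genes had 0 of 10 called and a median of -0.10 that turned to 0.38 without 4w pw1 library a and to 0.34 without 8w pw1 library b. Of these Krt79, a keratin of the infundibulum and sebaceous duct, had 1591, 1541 and 1269 CPM and then 355, 71.9 and 409 CPM (log2 fold change -2.40, SE 1.28, adjusted p = 0.62). Its log2 fold change was the lowest of that list. The 14 lists not yet given (AP-1 factors, heat shock proteins, unfolded protein response, glycolysis, interferon response, cytokines, Wnt, Notch, EGF receptor, migration, polarity, polycomb, nuclear-retained RNAs and sex-linked transcripts) had no called member and medians between -0.90 and 0.67.

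The values before injury place these differences. Between 4w pw1 and 0w 28 of 18025 genes (0.155%) were called, 9 higher (0.0499%) and 19 lower (0.105%) at 4w pw1, and 5 to 28 with a library left out. Between 8w pw1 and 0w 0 genes (0%) were called with edgeR's quasi-likelihood test, with 1070 genes (5.94%) at an unadjusted p under 0.05 and 35 called by the likelihood ratio test. These comparisons share libraries with the one between 8w pw1 and 4w pw1. Krt15 differed from 0w by -2.27 on the log2 scale at 4w pw1 (SE 0.29, adjusted p = 0.0034) and by 0.25 at 8w pw1, and Bmp2 by -4.74 (SE 0.72, adjusted p = 0.014) and by -0.28. Slc7a11 differed by 4.36 (SE 0.69, adjusted p = 0.019) and by 0.03, and Krt28 by 6.25 (SE 0.79, adjusted p = 0.0034) and by 3.02. The level before injury lay closer to 8w pw1 than to 4w pw1 for Krt15, Bmp2 and Slc7a11. Dapl1 was otherwise, with 0w near 4w pw1, at log2 fold changes against 0w of -0.07 at 4w pw1 and 2.15 at 8w pw1 (adjusted p = 0.16). Krt71 varied before injury, at 278, 14.3 and 4.8 CPM.

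On a scale for each gene from its mean log2 CPM at 4w pw1 to that at 8w pw1, the 0w mean lay nearer to 8w pw1 for 47 of the 59 called genes (79.7%) and for 58.7% of all genes tested. At 1w pw1 it was 32 genes (54.2%, with 57.1% of all genes), and at 2w pw1 15 genes (25.4%, with 48.7% of all genes). At 1w pw2 it was 41 genes (69.5%, with 57.4% of all genes). The 2w pw1 level was therefore on the 4w pw1 side for most called genes, 33 of the 41 that rose and 11 of the 18 that fell. The ends of the scale are the values that chose the genes, so only the place of the other time points is new, and it carries no test.

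Lrig1 GL cells, the progeny of stem cells at the junctional zone between the bulge and the infundibulum, were sampled at the same times in 6 other libraries. In a joint model of both populations over 16153 genes, the change from 4w pw1 to 8w pw1 differed between Lgr5 GL and Lrig1 GL cells for 564 genes (3.49%) at an adjusted p under 0.05. It was more positive in Lgr5 GL cells for 302 (1.87%) and more negative for 262 (1.62%). With DESeq2's size factors that division was 198 and 316 of 514 genes. The count came to 115 genes with the GC trend removed, 159 with the replicate number as a block and 166 to 758 with a Lgr5 GL library left out. In Lrig1 GL cells 989 genes (6.12%) were called between these times in this model. The 59 genes of Lgr5 GL cells came from the Lgr5 GL libraries alone, over 18025 genes, so that count is not a like measure. Of the 59 genes called in Lgr5 GL cells, 32 differed between the populations, and 29 of these 32 (90.6%) had the opposite sign in Lrig1 GL cells. Of all 564 genes that differed, 548 (97.2%) had opposite signs, so the share among the called genes was not above that of all differing genes. Among the 29 called genes with the opposite sign, that change was itself called in Lrig1 GL cells for 6. The same count was not made over the 548.

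Rabac1 and Tuba4a rose from 4w pw1 to 8w pw1 in Lgr5 GL cells and fell in Lrig1 GL cells (adjusted p of the change in Lrig1 GL cells 0.0095 and 0.0083). Cst3 had the smallest p for the difference, and its log2 fold change of -1.0 in Lrig1 GL cells did not pass by itself (adjusted p = 0.051). In the joint scaling Cst3 had 241, 269 and 238 CPM at 4w pw1 and 1352, 1329 and 1767 CPM at 8w pw1 in Lgr5 GL cells, and 850, 716 and 530 CPM and then 346, 341 and 359 CPM in Lrig1 GL cells. The difference between the log2 fold changes of Cst3 was 3.58 (SE 0.45, adjusted p = 0.00013). Rabac1 had 82.5, 104 and 55.5 CPM and then 382, 302 and 259 CPM in Lgr5 GL cells, and 223, 330.2 and 207 CPM and then 111, 77.6 and 82.8 CPM in Lrig1 GL cells, a difference of 3.44 (SE 0.47, adjusted p = 0.00031). Each population thus had its time points apart and in opposite order. Tra2a, a splicing factor, went the other way, with a difference of -3.26 (SE 0.48, adjusted p = 0.00078). Krt15 had 1961, 2966 and 1065 CPM and then 1561, 2180.4 and 1387 CPM in Lrig1 GL cells, which overlapped, and its difference was 2.69 (SE 0.68, adjusted p = 0.025). For Id1 the difference was 2.75 (SE 0.61, adjusted p = 0.012). Nr3c1 was higher at 8w pw1 in both populations, by 1.93 in Lgr5 GL and by 2.12 in Lrig1 GL cells on the log2 scale (adjusted p of the change in Lrig1 GL cells 0.0088), and the difference was -0.19 (SE 0.63).

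**Figure D5:**
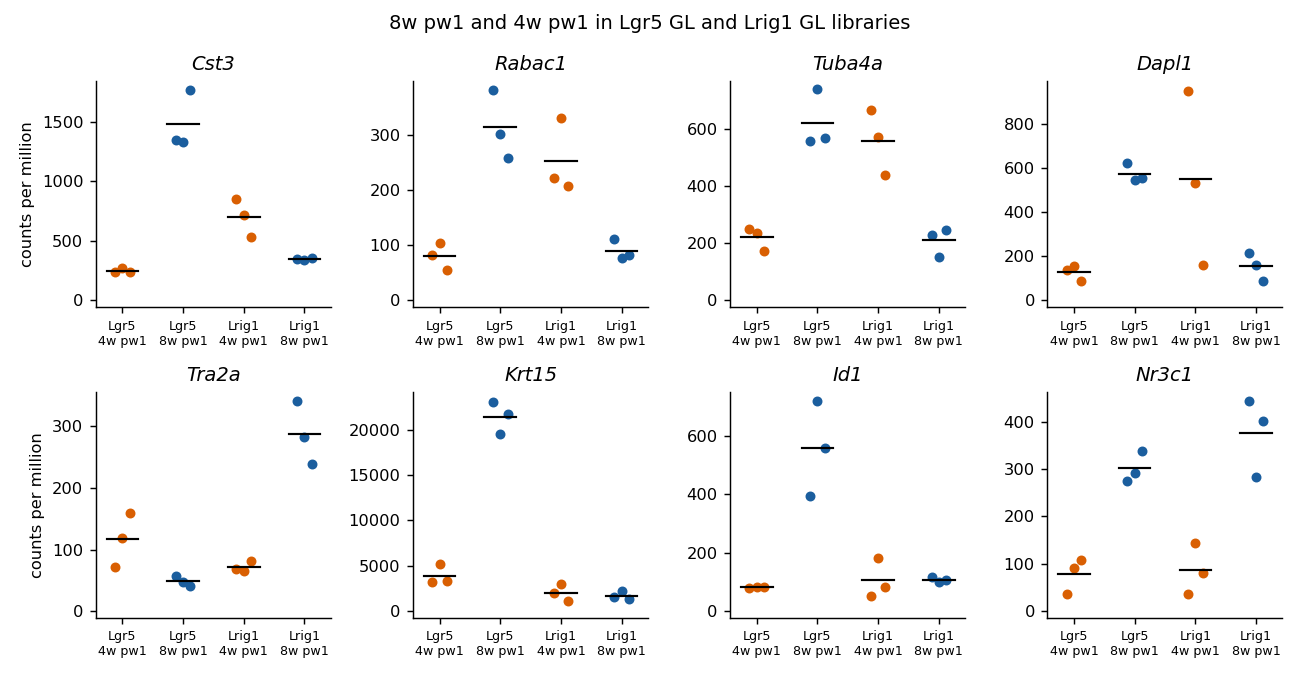
Expression in CPM of 8 genes (Dapl1 chosen after its values were seen) at 4w pw1 (orange) and 8w pw1 (blue) in Lgr5 GL and Lrig1 GL libraries, scaled together. Points are libraries (3 per group) and the bar is their mean. Cst3 goes from at most 269 to at least 1329 CPM in Lgr5 GL cells and from at least 530 to at most 359 CPM in Lrig1 GL cells.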

How the data were processed

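RNA of 150 sorted tdTomato+ cells per library was sequenced after full-length cDNA amplification, in 3 libraries for each of 6 time points of Lgr5 GL cells and of Lrig1 GL cells. The authors trimmed reads with Trim Galore 0.5.0, aligned them to mm10 with HISAT2 and deposited counts of reads in exons per gene name (featureCounts, GENCODE M20), 1 table per population; whether the counting used strand is not given in the sources used here. Total counts of the 18 Lgr5 GL libraries ranged from 1297798 to 6960537, and intervals and floors of 3 counts cover counting error only.

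Counts were analysed as deposited in R 4.3.3 with edgeR 4.0.16. Genes were kept by filterByExpr (minimum count 10), scaled by TMM and fitted by the quasi-likelihood model over the 18 Lgr5 GL libraries (prior count 0.125). Called genes had a p below 0.05 after Benjamini-Hochberg adjustment and a log2 fold change of more than 1 in either direction. The difference between populations was fitted in 1 model of 36 libraries over the 16153 genes tested in both tables, at an adjusted p under 0.05. Libraries of a group are separate samples by their labels, so p-values measure the spread between them, part of which may be technical. Genes were named by rule: the 15 higher and 15 lower called genes with the smallest p, a mean of at least 10 counts, groups that did not overlap and no clone name, then all called members and the 3 members with the highest level in each of 34 gene lists, and the 5 genes with the smallest p for the difference between populations. Not every list member that this rule covers is given a value in the text. The genes and lists were chosen with earlier results of these data known. Gene positions came from GENCODE M21 on GRCm38, which held 22436 of the 22587 names, and promoters from RefSeq. A few genes that the rule or the text would name are not reported here. The fits were tested on simulated data. Alternatives in scaling, filter, tool (DESeq2 1.42.0, limma 3.58.1, sva 3.50.0), GC content, depth, replicate block and left-out libraries were run.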

Additional observations from a re-analysis of the deposited data

Results flagged for a closer look

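The change from 4w pw1 to 8w pw1 differed between Lgr5 GL and Lrig1 GL cells for 564 genes in the joint model (edgeR's quasi-likelihood test, adjusted p under 0.05), and for 48 of the genes named here by rule or in a list. The values that follow are the log2 fold change in Lgr5 GL cells minus that in Lrig1 GL cells, each from 3 libraries per group, and a positive value means a higher change in Lgr5 GL cells.

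Among the genes with the smallest p were Cst3 (3.58), Rabac1 (3.44), Tra2a (-3.26) and Tuba4a (2.91). Bulge and BMP genes with a difference were Krt15 (2.69), Id1 (2.75) and Nfib (-2.14), and the Wnt pathway gene Lgr4 had -1.97. Junction, envelope and protease inhibitor genes were Sbsn (3.98), Dmkn (2.68), Calml3 (2.2), Gjb5 (3.31), Gja1 (-2.27), Jup (1.95), Spink5 (3.48), Serpinb2 (3.33), Wfdc3 (4.66) and Ecm1 (2.56). In the cell cycle they were Cdkn1a (2.59), Ccnd2 (-2.22), Cenpf (-3.14), Top2a (-2.73) and Dtl (-5.71). Of the nuclear-retained RNAs, Malat1 (-3.40) and Kcnq1ot1 (-3.87) were named here, and no test of that list was made. The remaining genes were Anxa8 (2.48), Chit1 (3.87), Plp2 (2.38), Dapl1 (3.99), Cd9 (1.85), Hspb1 (2.90), Parp10 (5.07), Pdzk1ip1 (4.82), Txn-ps1 (2.58), Dlgap4 (2.93), Endod1 (2.55), Ier3 (2.63), Sbds (2.09), Ptms (1.69), Krt5 (1.40), Rplp0 (1.47), Mt1 (1.67), Gsn (2.29), Tkt (1.28) and Tmem45a (1.85) on the positive side, and Nrep (-4.23), Parm1 (-4.06) and Egfr (-2.07) on the negative side.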

How the results depend on the processing

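Over the 25 alternatives run for the 59 genes called between 8w pw1 and 4w pw1, the count was 97 with at least 50 counts in 3 libraries required, 105 in the 6 libraries alone, 267 with the likelihood ratio test, 309 with DESeq2, 299 with limma-voom, 127 with 2 surrogate variables and 4 with the 4 surrogate variables estimated. All 59 kept their sign in every fit that tested them. Leaving out a library gave 8 to 43 genes, and only 4w pw1 library b left the count within 1.5 times of 59. The likelihood ratio test called 268 genes between 4w pw1 and 0w, 35 between 8w pw1 and 0w and 1150 for the difference between populations. Leaving out a library gave 5 to 28 genes between 4w pw1 and 0w (5 and 11 without 0w library a and b, and 6, 8 and 7 without 4w pw1 library a, b and c), and 0 to 1 between 8w pw1 and 0w (1 without 0w library a). The difference between populations gave 115 genes with the GC trend removed, of which 95 were among the 564, and 166 to 758 with a Lgr5 GL library left out (344 and 166 without 4w pw1 library b and c, 197 and 268 without 8w pw1 library a and b). The causes were not tested. The median log2 fold change of all genes moved between -0.10 and 0.07 over the scalings and left-out libraries, and the medians of 8 gene lists changed sign in at least 1 of them.

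With the replicate number as a block, 36 genes were called between 8w pw1 and 4w pw1 (33 of the 59), 34 with the GC trend removed as well, 8 between 4w pw1 and 0w, 0 between 8w pw1 and 0w and 159 for the difference between populations. Krt25, Krt28 and Krt71 were not among the 33. The deviations of same-numbered libraries at 4w pw1 and 8w pw1 correlated at r = 0.157 and 0.0925 across genes for the 2 numbers that both groups share. For libraries of unlike number r ran from -0.145 to 0.102. The numbers were not taken as a pairing, and whether they mark a batch was not tested.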
